A study of Saccharomyces cerevisiae with 6 samples.

Results

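Transcript levels in the yeast strains R008 and EC1118 were set against those in VL3 and AWRI796, with all 4 strains fermenting in the presence of SO2. R008 is a vineyard isolate (wild type), and EC1118, VL3 and AWRI796 are enological strains, that is, strains used to make wine. Each strain was grown in MS300, which stands in for a white grape must, at 25 °C with 25 mg/l of total SO2 added, and cells were taken in mid exponential phase, once 6 g/l of CO2 had been released. These 4 libraries are 4 of the 6 analysed here, and the other 2 are VL3 and AWRI796 grown without SO2. Each strain and SO2 level has 1 library, so a side of the comparison holds 2 strains and no replicates. A limma p-value therefore measures only the spread between strains of a side, taken in larger part from other genes. Cultures of R008 and EC1118 without SO2 were not analysed here, so a difference between the sides cannot be told apart from a difference in how their strains respond to SO2.

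Genes entered the comparison if they had a value in all 4 libraries and a mean of at least 5 RPKM, the reads per kilobase of gene, scaled to the mapped reads of the library, that the authors deposited. Of 6603 rows analysed, 6036 genes had a value in all 4 libraries and 5009 reached that mean. The nearest gene inside the limit was SUE1 with a mean of 5.005 RPKM, and the nearest outside was CDC26 with 4.995 RPKM. Gene models may differ between the 2 sides, since a gene could have a value in some strains and none in others. Not given in the sources used here are the gene models applied to any strain. A difference between strains therefore cannot be told apart from a difference in gene model or in read mapping. Values below are scaled RPKM, which are RPKM divided by 1 scaling factor per library, and differences are log2(scaled RPKM + 1) of R008 and EC1118 minus that of VL3 and AWRI796. The pseudocount of 1 understates the difference of genes with low values, and the depth of the libraries is unknown because RPKM hold no counts.

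SO2 dissolves in must as sulfite, which is toxic to yeast and is also an intermediate in the reduction of sulfate to the sulfide used for methionine and cysteine. The plasma membrane pump Ssu1 exports sulfite, and the transcription factor Fzf1 activates its gene. In some wine strains a translocation between chromosomes 8 and 16 joins the region upstream of ECM34 to SSU1, and whether any strain here carries it was not tested. Nitric oxide, another small toxic molecule, is removed by the flavohemoglobin Yhb1.

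The sides were not 2 groups of like strains: R008 and EC1118 differed in the fewest genes of any pair, and VL3 and AWRI796 in the most. On the log2 scale 218 genes (4.35% of 5009) differed at least 2-fold between R008 and EC1118, and 450 genes (8.98%) between VL3 and AWRI796. Across the sides the count was 261 for R008 and VL3, 422 for R008 and AWRI796, 351 for EC1118 and VL3, and 344 for EC1118 and AWRI796. VL3 thus differed from R008 in fewer genes than from AWRI796, the other strain of its own side. By Pearson correlation across genes the pairs ranked otherwise. EC1118 and AWRI796 were the most alike (0.947) and R008 and AWRI796 the least (0.926). R008 and EC1118 were at 0.94, as were R008 and VL3, and VL3 and AWRI796 were at 0.931.

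Few genes separated the sides widely. limma called 2 genes at an adjusted p under 0.05 (0.0399% of 5009), YHB1 higher in R008 and EC1118 (0.02%) and SPR3 lower (0.02%), while 232 had an unadjusted p under 0.05. An exact permutation test of 2 libraries against 2 cannot give a p below 0.33, so the sides were also compared by size alone. In 19 genes (0.379%) every library of one side stood at least 2-fold from every library of the other, 12 higher in R008 and EC1118 (0.24%) and 7 lower (0.14%). At a distance of 1.5-fold, a limit chosen after seeing the data, there were 102 genes (2.04%), 68 higher (1.36%) and 34 lower (0.679%). The sides did not overlap at all in 1684 genes (33.6%), 800 higher (16%) and 884 lower (17.6%). Of the 19 genes, 5 are annotated as dubious reading frames, 5 overlap another reading frame and 1 has a near-identical copy, which leaves 11 with none of these marks. PTR2, YER135C, YER097W, YOR203W and YGR122C-A were under 5 RPKM in both VL3 and AWRI796, and SPR3, HOP2, DIA3 and YDL022C-A in both R008 and EC1118, so these 9 reached the mean of 5 RPKM only through the side where they were high and had to differ. In 4 of the 19 genes, PDR15, YLL056C, SCS3 and ATG36, the smallest distance between the sides lay just past 2-fold. It was between 1 and 1.1 on the log2 scale, and 10 further genes lay just short of 2-fold, between 0.9 and 1.

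**Figure D1:**
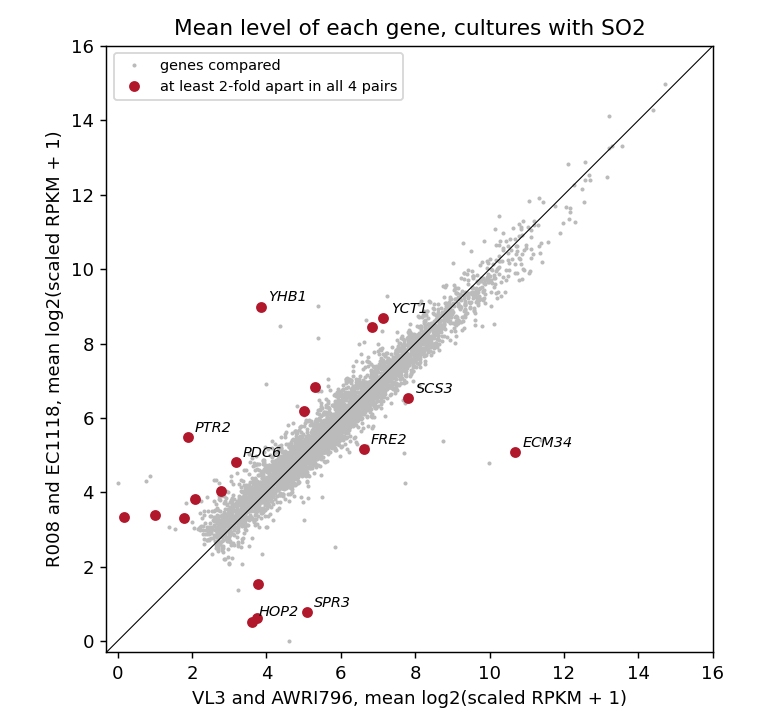
Mean log2(scaled RPKM + 1) of each of the 5009 genes in R008 and EC1118 (vertical axis) and in VL3 and AWRI796 (horizontal axis), all with SO2, with a line of equal level. Red points are the 19 genes at least 2-fold apart in all 4 pairs of strains; YHB1 lies farthest above the line and ECM34 farthest below it among them.

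The stretches of 300 bases before the start codons of 4 genes are shown because the results below turn on these genes: YHB1 and SPR3 passed limma's test, ECM34 had the largest difference of the 19, and MET28 is the sulfur regulator that stood apart at 1.5-fold. They are read 5′ to 3′ on the gene's strand from the R64 reference genome (RefSeq), which is that of the laboratory strain S288C and not of these wine strains.
YHB1: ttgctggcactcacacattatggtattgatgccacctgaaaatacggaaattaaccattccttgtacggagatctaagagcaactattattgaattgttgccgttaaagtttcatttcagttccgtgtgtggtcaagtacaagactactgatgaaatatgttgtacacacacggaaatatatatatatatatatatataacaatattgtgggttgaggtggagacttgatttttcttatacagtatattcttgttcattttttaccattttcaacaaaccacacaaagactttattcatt
SPR3: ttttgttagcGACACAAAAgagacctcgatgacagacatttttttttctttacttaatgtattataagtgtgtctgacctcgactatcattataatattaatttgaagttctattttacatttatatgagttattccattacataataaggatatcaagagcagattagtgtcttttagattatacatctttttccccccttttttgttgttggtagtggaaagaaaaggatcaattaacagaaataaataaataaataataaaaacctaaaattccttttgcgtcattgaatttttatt
ECM34: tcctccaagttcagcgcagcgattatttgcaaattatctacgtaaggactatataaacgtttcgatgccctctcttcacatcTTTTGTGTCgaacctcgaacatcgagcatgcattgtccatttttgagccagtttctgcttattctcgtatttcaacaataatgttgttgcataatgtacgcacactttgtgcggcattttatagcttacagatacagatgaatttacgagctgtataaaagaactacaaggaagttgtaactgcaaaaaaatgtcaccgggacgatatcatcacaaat
MET28: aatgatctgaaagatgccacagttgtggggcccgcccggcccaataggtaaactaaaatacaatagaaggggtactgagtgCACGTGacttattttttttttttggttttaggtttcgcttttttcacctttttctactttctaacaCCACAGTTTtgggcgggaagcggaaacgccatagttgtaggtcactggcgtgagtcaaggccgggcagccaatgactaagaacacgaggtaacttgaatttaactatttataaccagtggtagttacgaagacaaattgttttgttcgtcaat
The coordinates are chr7:959604-959903 on the plus strand for YHB1, chr7:607263-607562 on the plus strand for SPR3, chr8:14601-14900 on the plus strand for ECM34 and chr9:384120-384419 on the minus strand for MET28. Capitals mark matches on either strand to the motifs searched, which were CACGTG (Cbf1), AAACTGTGG (Met31 and Met32), TGCACCC (Aft1), GGCGGC (Ume6) and GNCACAAAA (Ndt80, the activator of middle meiotic genes). SPR3 held GACACAAAA and ECM34 its reverse complement TTTTGTGTC, a motif present in 1.89% of 5859 such stretches. MET28 held CACGTG, present in 3.6%, and CCACAGTTT, the reverse complement of the Met31 and Met32 motif, present in 0.512%. YHB1 held none of the motifs searched, among which there was none for Fzf1. GGCGGC, present in 5.27%, was found in PDC6, and TGCACCC, present in 1.31%, in none of the 15 of the 19 genes that had a stretch to search. A match is a description of these letters in the reference and was not tested as a binding site.

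YHB1 (YGR234W, chromosome 7, 959904 to 961103, R64) was the most distant gene above. It stood at 386 in R008 and 664 in EC1118, against 15.6 in VL3 and 11.6 in AWRI796. The lowest library of R008 and EC1118 was at least 23.3-fold above either library of the other side. The log2 difference was 5.13 ± 0.33 (SE, n = 2 strains a side, limma adjusted p = 0.00515). VL3 and AWRI796 without SO2 stood at 13.9 and 6.39, so YHB1 was low in both strains at either SO2 level. Its neighbours did not stand apart: PHO81 was 18.3 in R008 and 21.2 in EC1118, against 16.4 in VL3 and 15.9 in AWRI796, and MIC26 was 218 and 190, against 169 and 199 in the same order of strains.

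SPR3 (YGR059W, chromosome 7, 607563 to 609101), a septin made during sporulation, was the gene that fell by limma. It stood at 0.279 in R008 and 1.27 in EC1118, against 31.6 in VL3 and 34.7 in AWRI796, with 38.1 in VL3 and 60.6 in AWRI796 without SO2. Its log2 difference was -4.32 ± 0.43 (SE, n = 2 strains a side, limma adjusted p = 0.0467), and the sides lay at least 14.4-fold apart. The adjusted p ranged from 0.0121 to 0.404 over 12 other settings, and SPR3 was called in 6 of them. HOP2 (YGL033W, chromosome 7, 435625 to 436351 as deposited), which acts in the pairing of homologous chromosomes in meiosis, was 0.447 in R008 and 0.413 in EC1118, against 8.61 in VL3 and 14.4 in AWRI796. It missed the test (log2 difference -3.09, limma adjusted p = 0.617), and in AWRI796 without SO2 it was 0.551, near R008 and EC1118. Of 42 meiosis and sporulation genes listed only 10 reached the mean of 5 RPKM. Over those 10 the median log2 difference was 0.01, with 2 higher (20%, against 16% of all genes) and 3 lower (30%, against 17.6%) without overlap. SPR3 and HOP2, 2 of the 3 lower, reached that mean only through VL3 and AWRI796 and so had to be lower. The share of 30% is therefore not a result about meiosis genes. The median was below 0 without the scaling factors (-0.12) or with quantile normalization (-0.06). The third lower gene, SPS100, a spore wall gene, was 13.3 in R008 and 14 in EC1118, against 17 in VL3 and 113 in AWRI796.

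**Figure D2:**
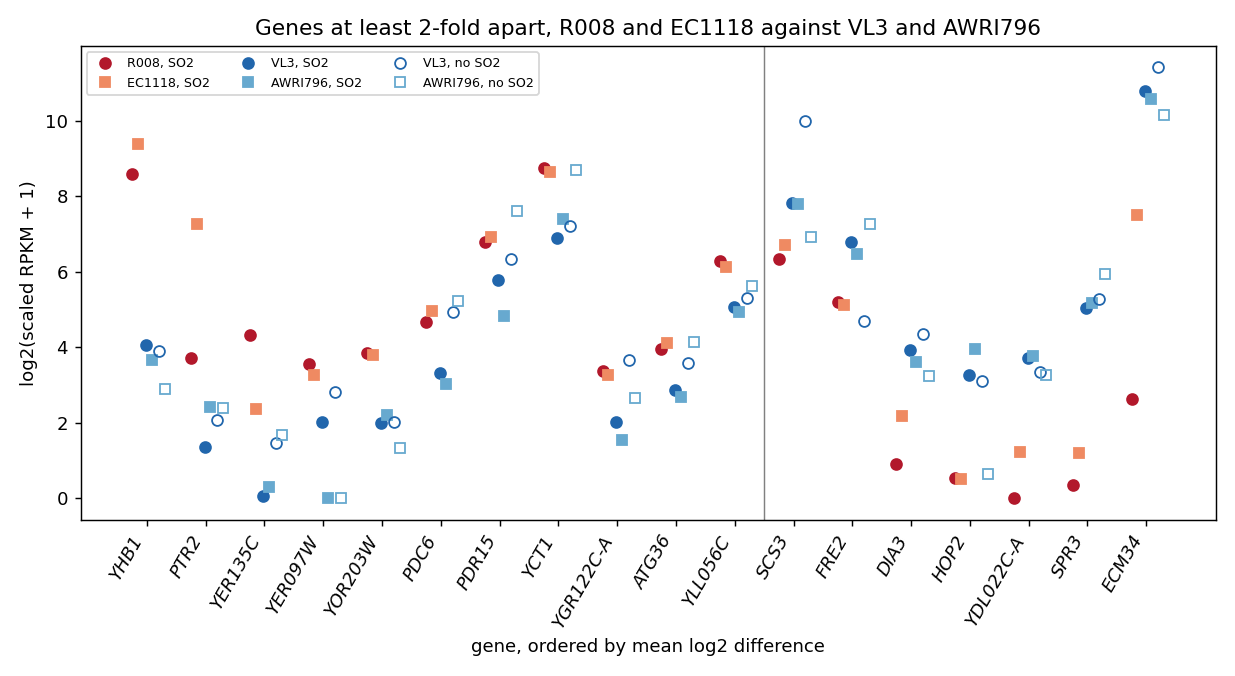
Level, as log2(scaled RPKM + 1), of 18 of the 19 genes at least 2-fold apart in all 4 pairs of strains, in order of mean difference, with 1 point per library; filled points are cultures with SO2 and open points are VL3 and AWRI796 without SO2. YHB1 and SPR3 keep their distance when the open points are included, while for PDC6, PDR15, YCT1, YGR122C-A, ATG36 and FRE2 an open point of VL3 or AWRI796 reaches the level of R008 and EC1118 or crosses it.

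ECM34 (YHL043W, chromosome 8, 14901 to 15413), a gene of unknown function, had the largest difference of the 19 and was not called. It was 5.2 in R008 and 181 in EC1118, against 1769 in VL3 and 1539 in AWRI796, and 2729 in VL3 and 1142 in AWRI796 without SO2. R008 and EC1118 themselves lay far apart, and the log2 difference of -5.62 ± 1.32 (SE, n = 2 strains a side) had a limma adjusted p of 0.92. Over 13 alternatives the log2 difference ranged from -8.06, without EC1118, to -3.18, without R008. Leaving out either strain leaves 1 library on that side, so the distance between R008 and EC1118 no longer counts in the spread. The next reading frame, YHL042W (chromosome 8, 15667 to 16119), was 11.6 in R008 and had no value in EC1118, against 1863 in VL3 and 2453 in AWRI796, and so stood outside the 5009. DFP4, on the near side of ECM34, was 40.9 in R008 and 139 in EC1118, against 85 in VL3 and 119 in AWRI796, and YHL041W, a dubious frame on the far side, was at most 2.8 in all 6 libraries.

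SSU1 (YPL092W, chromosome 16, 373793 to 375169) was 2932 in R008 and 937 in EC1118, against 708 in VL3 and 549 in AWRI796. The sides did not overlap, but EC1118 stood nearer to VL3 than to R008 (log2 difference 1.41, limma adjusted p = 0.945). In VL3 without SO2 it was 809 and in AWRI796 without SO2 it was 11, while ECM34 was 1142 in that library. FZF1 overlapped, at 13.8 in R008 and 17.7 in EC1118, against 14.5 in VL3 and 13.4 in AWRI796. NOG1 and GLR1, the neighbours of SSU1, overlapped as well, with log2 differences of -0.02 and -0.12.

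**Figure D3:**
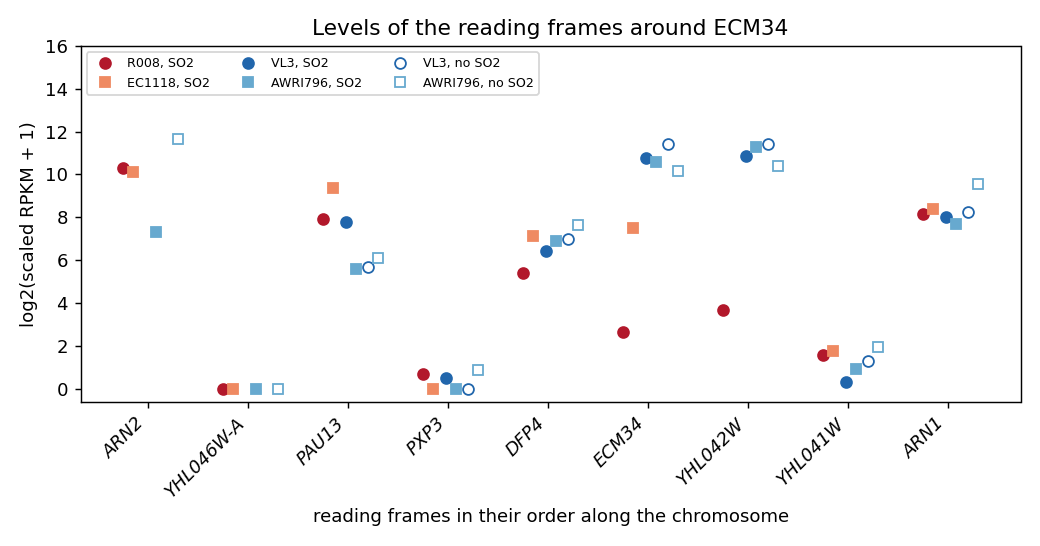
Level, as log2(scaled RPKM + 1), of ECM34 and the reading frames around it in their order along chromosome 8, with 1 point per library and no point where a library has no value. ECM34 and YHL042W stand high in the 4 VL3 and AWRI796 libraries and low in R008 at 5.2 and 11.6. DFP4 is also lowest in R008, at 40.9 against 85 to 196 in those 4 libraries, with EC1118 at 139.

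Among the 12 genes past the 2-fold distance and higher was a transporter of a sulfur amino acid. YCT1 (YLL055W, chromosome 12, 30109 to 31704), a high-affinity cysteine transporter, was 427 in R008 and 396 in EC1118, against 118 in VL3 and 168 in AWRI796 (log2 difference 1.54, limma adjusted p = 0.765). AWRI796 without SO2 reached 416, the level of R008 and EC1118. YLL056C (chromosome 12, 27409 to 28305), the frame beside YCT1, was 76.6 in R008 and 68.4 in EC1118, against 32.5 in VL3 and 29.5 in AWRI796. YLL054C, on the other side of YCT1, overlapped, with a log2 difference of -0.03.

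All 6 sulfur amino acid transport genes compared, of 10 listed, were on the higher side of 0, at a median log2 difference of 0.56 against -0.02 over all 5009 genes, and 4 of the 6 were higher without overlap (66.7%, against 16% of all genes). MUP3, a methionine permease, was 130 in R008 and 90.3 in EC1118, against 71.6 in VL3 and 60.5 in AWRI796. OPT1, which carries glutathione and oligopeptides, was 169 and 101, against 83.5 and 83.6 in the same order of strains. MUP1, the high-affinity methionine permease, showed no such order: R008 had 346 and EC1118 had 90.4, against 158 in VL3 and 162 in AWRI796. None of the list except YCT1 reached the 2-fold distance, and limma called none.

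Genes that make methionine, cysteine and S-adenosylmethionine went both ways. Of 17 compared, 7 were higher (41.2%, against 16% of all genes) and 7 lower (41.2%, against 17.6%) without overlap, at a median log2 difference of 0.33 that was 0.08 without AWRI796, 0.12 without VL3 and 0.14 without overlapping and near-identical genes. MET17, which fixes sulfide into homocysteine, was 3090 in R008 and 2423 in EC1118, against 959 in VL3 and 1548 in AWRI796, although it overlaps the frame YLR302C. MHT1, a methyltransferase that makes methionine from S-methylmethionine, was 62 and 75.3, against 21.5 and 41.4, and CYS3, which makes cysteine from cystathionine, was 103 and 103, against 72.8 and 53.3, in the same order of strains. On the lower side, SAM4, which makes methionine from S-adenosylmethionine and homocysteine, was 9.22 in R008 and 8.02 in EC1118, against 18.4 in VL3 and 53.5 in AWRI796. HOM2, of the path from aspartate to homoserine, was 657 and 671, against 1013 and 1076. MET28, a regulator of sulfur genes that overlaps YIR017W-A, was 103 in R008 and 109 in EC1118, against 55.3 in VL3 and 47.1 in AWRI796. No gene of this paragraph passed limma's test (adjusted p between 0.92 and 0.945).

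Sulfate uptake and reduction, the pathway in which sulfite is made, had genes on either side of 0. Of 9 genes compared, 2 were higher (22.2%, against 16% of all genes) and 2 lower (22.2%, against 17.6%) without overlap, and the median log2 difference of 0.04 was -0.11 without the scaling factors. SUL2, the sulfate permease, was 316 in R008 and 252 in EC1118, against 228 in VL3 and 213 in AWRI796, and MET10, a subunit of sulfite reductase, was 167 and 170, against 138 and 154. MET5, the other subunit, was lower at 630 and 468, against 852 and 787, and so was MET8, which makes siroheme, the cofactor of that enzyme, at 3.57 and 3.85, against 9.39 and 5.87. The other genes overlapped. MET3, the ATP sulfurylase that opens the pathway, was 2334 in R008 and 1559 in EC1118, against 1862 in VL3 and 1677 in AWRI796. MET14, which acts next, was 2195 and 1585, against 1719 and 2878, and MET16, which releases sulfite, was 356 and 527, against 381 and 383. MET22, a phosphatase that clears a by-product of the pathway, was 1115 and 1007, against 1095 and 1356, and MET1, another siroheme gene, was 507 and 376, against 421 and 430.

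Of 38 oxidative stress genes compared, 10 were higher without overlap (26.3%, against 16% of all genes) and 0 lower, while 27 lay above 0 and 11 below, at a median log2 difference of 0.18 that was 0.04 without the scaling factors. YHB1 is 1 of the 10. AHP1, a thiol peroxidase, was 2227 in R008 and 2091 in EC1118, against 1180 in VL3 and 1089 in AWRI796, and GRX2, a glutaredoxin that overlaps YDR512C, was 217 and 222, against 114 and 121. OYE3, an NADPH oxidoreductase, was 109 and 56.3, against 41.3 and 18.1, with R008 well above EC1118. AWRI796 without SO2 had 1870 for AHP1 and 304 for GRX2, nearer to R008 and EC1118 or above them. CTT1, the cytosolic catalase, overlapped, at 106 in R008 and 40.6 in EC1118, against 143 in VL3 and 87.5 in AWRI796. Except for YHB1, no gene of the list passed limma's test, and CTT1 also belongs to the stationary phase markers below.

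Other genes past the 2-fold distance had varied roles. PTR2 (YKR093W, chromosome 11, 615730 to 617535), which imports small peptides, was 12 in R008 and 154 in EC1118, against 1.55 in VL3 and 4.36 in AWRI796 (log2 difference 3.6, limma adjusted p = 0.945). VL3 and AWRI796 were alike without SO2, at 3.22 and 4.26. PDC6 (YGR087C, chromosome 7, 651290 to 652981), the minor pyruvate decarboxylase, was 24.2 in R008 and 30.3 in EC1118, against 9.02 in VL3 and 7.12 in AWRI796 (log2 difference 1.64, limma adjusted p = 0.642). Without SO2, VL3 had 29.6 and AWRI796 had 36.2, so the distance held only against the cultures with SO2. ATG36 (YJL185C, chromosome 10, 82095 to 82976), the receptor for the degradation of peroxisomes, was 14.5 in R008 and 16.3 in EC1118, against 6.24 in VL3 and 5.4 in AWRI796. Without SO2 only AWRI796 reached the level of R008 and EC1118 for ATG36, at 16.6, while VL3 had 10.9.

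Lower in R008 and EC1118 was FRE2 (YKL220C, chromosome 11, 9091 to 11226), a ferric reductase of the plasma membrane, at 35.6 in R008 and 33.7 in EC1118, against 109 in VL3 and 86.8 in AWRI796 (log2 difference -1.47, limma adjusted p = 0.617). VL3 without SO2 had 25, below R008 and EC1118, and AWRI796 without SO2 had 153. Of 33 iron regulon genes compared, FRE2 among them, 5 were higher (15.2%, against 16% of all genes) and 3 lower (9.09%, against 17.6%) without overlap, at a median log2 difference of -0.02 that was 0.03 with quantile normalization. SCS3 (YGL126W, chromosome 7, 270997 to 272139), of lipid droplet and phospholipid metabolism, was 80.2 in R008 and 104 in EC1118, against 227 in VL3 and 222 in AWRI796, with 1016 in VL3 and 119 in AWRI796 without SO2.

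The remaining 8 of the 19 genes are uncertain, and 7 of them are given here. PDR15, a multidrug exporter that overlaps YDR406W-A, was 109 in R008 and 119 in EC1118, against 53.6 in VL3 and 27.2 in AWRI796, and AWRI796 without SO2 exceeded them at 195. DIA3 and YDL022C-A overlap each other; DIA3 was 0.861 in R008 and 3.52 in EC1118, against 14.2 in VL3 and 11.1 in AWRI796, and YDL022C-A is a dubious frame with a log2 difference of -3.14. The other dubious frames were YER135C, YER097W, YOR203W and YGR122C-A, with log2 differences of 3.17, 2.39, 1.72 and 1.53, and YER097W was listed at 0 in AWRI796.

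The 2 VL3 and AWRI796 libraries without SO2 were not used to choose the 19 genes. Both lay on the same side of R008 and EC1118 as with SO2 in 13 of the 19 genes (68.4%), 7 of 12 higher and 6 of 7 lower. At the 1.5-fold distance this held for 52 of 102 genes (51%), and among all genes whose sides did not overlap for 761 of 1684 (45.2%). R008 and EC1118 serve in each of these counts, which are therefore not independent of the comparison with SO2. PHO84, the high-affinity phosphate transporter, was 1 of the 102, at 16.2 in R008 and 22.9 in EC1118, against 2.62 in VL3 and 9.08 in AWRI796, and without SO2 it was 0.0889 in VL3 and 0.129 in AWRI796. GIT1, a glycerophosphoinositol permease of the same regulon, was 15.5 and 11.5, against 6.07 and 7.03, but 25.2 in VL3 and 13 in AWRI796 without SO2. Of 20 phosphate regulon genes 7 were higher (35%, against 16% of all genes) and 2 lower (10%, against 17.6%) without overlap, at a median log2 difference of 0.08 that was -0.07 without the scaling factors.

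Cytosolic ribosomal protein genes had median log2 differences of -0.53 over 75 of the large subunit and -0.56 over 55 of the small subunit, with 24 and 16 genes lower without overlap (32% and 29.1%, against 17.6% of all genes) and 3 and 1 higher (4% and 1.82%, against 16%). These medians rest on AWRI796, without which they were -0.05 and -0.04. Without VL3 they were -1.03 and -0.99, and without R008 -0.33 and -0.29. The median log2 level of the large subunit list was 7.59 in R008 and 8.08 in EC1118, against 7.88 in VL3 and 8.88 in AWRI796, so VL3 stood below EC1118. Mitochondrial ribosomal proteins had a median log2 difference of -0.01 over 76 genes, with 15 higher (19.7%) and 5 lower (6.58%) without overlap. The median log2 level of the small subunit list was 8.15 in R008 and 8.75 in EC1118, against 8.45 in VL3 and 9.59 in AWRI796. Without SO2 the median levels of VL3 and AWRI796 were 7.51 and 7.18 for the large subunit and 8.08 and 7.79 for the small, all below R008. RPS25A was 524 in R008 and 684 in EC1118, against 1079 in VL3 and 1260 in AWRI796, and RPL23A was 106 and 149, against 233 and 255. AWRI796 without SO2 had 394 for RPS25A and 85.5 for RPL23A, below R008, while VL3 without SO2 had 1367 and 183. A near-identical copy makes 18 of the large subunit genes and 16 of the small subunit genes uncertain. Among these, RPL4A was 0.693 in R008, against 212 in EC1118, 125 in VL3 and 360 in AWRI796, and RPS4B was 3.64 in R008, against 291 or more in the other 3 libraries.

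Translation factors had a median log2 difference of -0.2 over 42 genes, with 13 lower (31%, against 17.6% of all genes) and 4 higher (9.52%, against 16%) without overlap. Only 1 gene of the list was lower at the 1.5-fold distance, so YEF3 and STM1, both past it, are not both members. YEF3, the elongation factor particular to fungi, was 1194 in R008 and 1347 in EC1118, against 2171 in VL3 and 2222 in AWRI796. STM1, which binds ribosomes, was 704 and 627, against 1329 and 1398. VL3 and AWRI796 without SO2 had 1665 and 1097 for YEF3 and 773 and 527 for STM1, so that AWRI796 there lay below R008 and EC1118 for both. Ribosome biogenesis genes had 27 lower (29%, against 17.6% of all genes) and 1 higher (1.08%, against 16%) of 93 without overlap, and their median log2 difference of -0.2 became 0.01 without R008. Purine and one-carbon synthesis had 9 lower (32.1%, against 17.6% of all genes) and 0 higher of 28 without overlap, at a median of -0.23. SER3, of serine synthesis, was 239 in R008 and 514 in EC1118, against 827 in VL3 and 965 in AWRI796, but 169 in AWRI796 without SO2. Arginine and lysine synthesis had 6 lower (31.6%) and 2 higher (10.5%) of 19 without overlap, against the same 17.6% and 16%, at a median of 0.01. LYS9 was 1201 in R008 and 1150 in EC1118, against 2380 in VL3 and 3067 in AWRI796, and LYS12 was 877 and 1045, against 1798 and 1606. In AWRI796 without SO2, LYS9 was 681, below R008 and EC1118. The 2 higher genes were LYS5, at 67.1 in R008 and 67.5 in EC1118, against 46 in VL3 and 53 in AWRI796, and CPA1, of arginine synthesis, at 73.1 and 152, against 32.7 and 50.7. limma called no gene of these lists.

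Stationary phase markers had 4 of 12 lower (33.3%, against 17.6% of all genes) and 0 higher without overlap and a median log2 difference of -0.4. Their median log2 level was 4.86 in R008 and 4.74 in EC1118, against 5.07 in VL3 and 5.59 in AWRI796, and the part of growth stage in the differences above was not tested. Nuclear genes of the respiratory chain and ATP synthase had 13 of 35 higher (37.1%, against 16% of all genes) and 2 lower (5.71%, against 17.6%) without overlap and a median of 0.24 (0.1 without the scaling factors and 0.1 without R008). QCR9, of complex III, was 100 in R008 and 69.4 in EC1118, against 51.5 in VL3 and 37 in AWRI796, and ATP14, of the ATP synthase, was 74.1 and 95, against 50.2 and 48.6. Multidrug and weak acid exporters had 9 of 22 higher (40.9%, against 16%) and 1 lower (4.55%, against 17.6%), at a median of 0.24 that was 0.09 without AWRI796. TPO1, a polyamine exporter, was 91.9 in R008 and 116 in EC1118, against 71.2 in VL3 and 54.4 in AWRI796, while SGE1, an exporter of dyes, was 77.7 and 80, against 127 and 112. ER translocation genes had 5 of 12 lower (41.7%, against 17.6%) and 1 higher (8.33%, against 16%) at a median of -0.38. Ergosterol genes had 8 of 29 lower (27.6%) and 1 higher (3.45%), against the same 17.6% and 16%, at a median of -0.23, which was 0.09 without VL3.

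**Figure D4:**
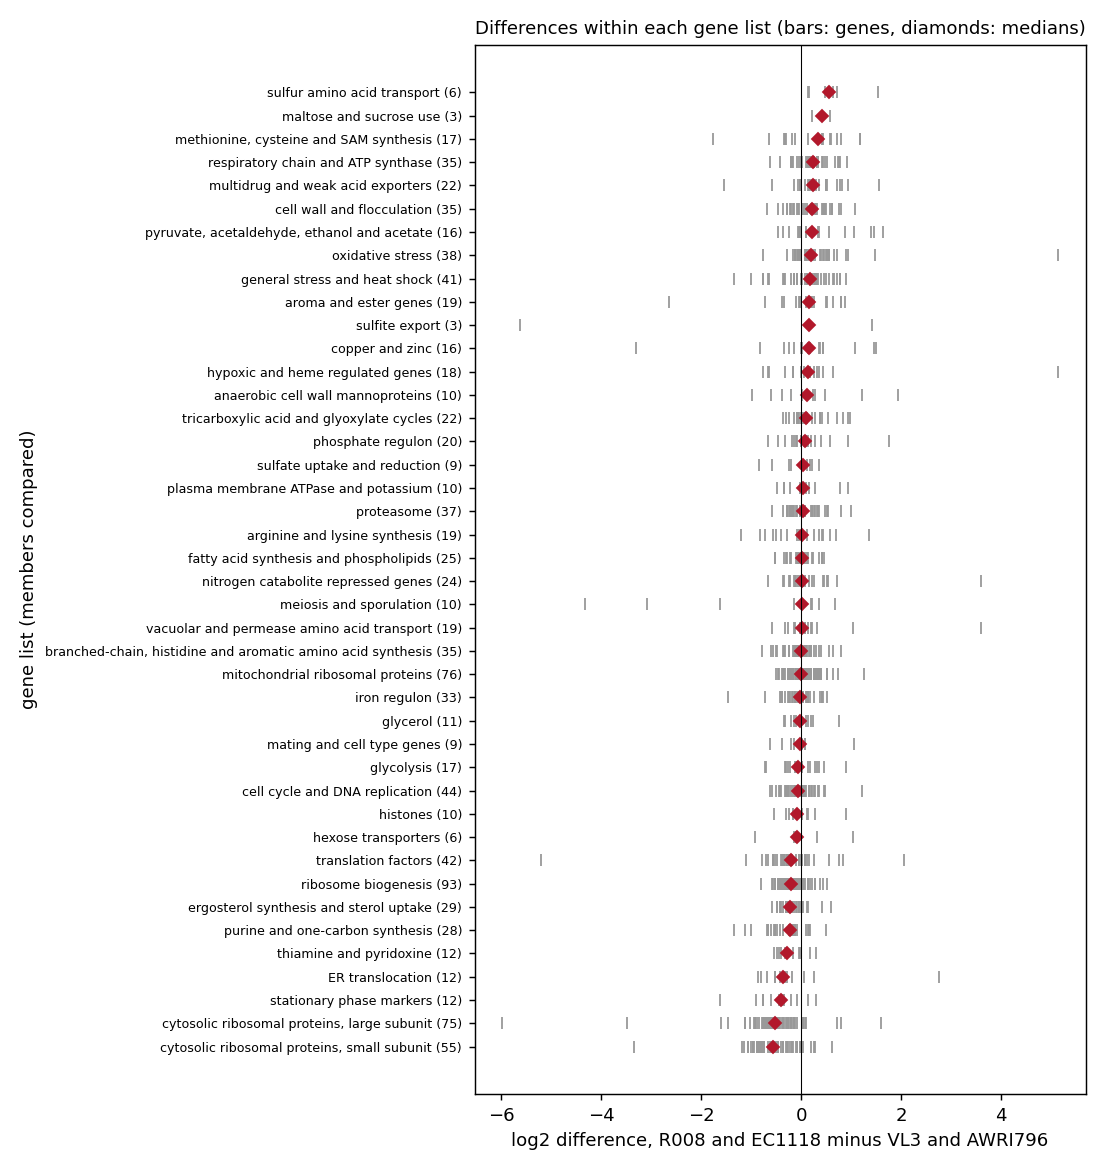
Log2 difference of each gene compared (grey bars), R008 and EC1118 minus VL3 and AWRI796, within the gene lists, with the median of each list as a red diamond and the number of genes in brackets. The 2 cytosolic ribosomal protein lists have the lowest medians, -0.56 and -0.53, and sulfur amino acid transport the highest, 0.56.

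Some genes had a value on 1 side only and could not be compared. R008 and EC1118 alone had a value for 59 genes listed in the Saccharomyces Genome Database (SGD), and VL3 and AWRI796 alone for 41. Of the 41, 32 (78%) lay within 30000 bases of a chromosome end and 13 had a near-identical copy, whereas of the 59, 10 (16.9%) lay that near an end and 3 had a copy. Over all 6526 such genes 6.63% lay that near an end. Copies were sought only among coding sequences of the R64 RefSeq annotation, so the 13 and 3 with a copy are minimums. Several of the 41, IMD1 among them, were outside that search. The 59 held DDR48, a stress gene rich in repeats, with 693 deposited RPKM in R008 and 1198 in EC1118, AQR1, an exporter of short-chain acids, with 150 and 109, HSP150, a cell wall protein, with 107 and 128, and TIR4, a cell wall mannoprotein, with 40.1 and 63.5. The 41 held YLR154C-G, in the ribosomal DNA region of chromosome 12, with 56995 deposited RPKM in VL3 and 66515 in AWRI796, the subtelomeric gene COS2, which has near-identical copies, with 24.7 and 338, and IMD1 with 149 and 156. A missing value is not a level of 0, and whether the gene, its model or its mapping differs in these strains was not tested. A further 77 rows had no SGD identifier; 45 had a value only in EC1118, 30 only in R008 and 2 in both, with 0 in VL3 or AWRI796. Of the 19 genes past the 2-fold distance, 3 (15.8%) lay within 30000 bases of a chromosome end, against 3.17% of the 5009.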

How the data were processed

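RNA sequencing of SOLiD 4 whole transcriptome libraries, made from rRNA-depleted total RNA per the labels' protocols, gave the table analysed here. Values are RPKM per gene and library as the authors deposited them, per the file headers. Not given in the sources used here were aligner, counter, build and gene models. In all, 6611 rows were deposited, of which 8 that shared a systematic name were left out, and 2 genes were taken from lines that held a second gene. RPKM summed to between 778099 and 1070965 per library. Coordinates are those deposited; 5860 of 5869 genes found in the R64 RefSeq annotation had the same start and end there.

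RPKM were divided by median-of-ratios factors computed over the 4 libraries with SO2 (0.895 to 1.105). The VL3 and AWRI796 libraries without SO2 were scaled by their median ratio to the mean log level of those 4. Their factors were 0.9 and 1.162, and they did not enter the fit. log2(scaled RPKM + 1) was fitted in R 4.3.3 by lmFit and trended eBayes of limma 3.58.1, two-sided, with Benjamini-Hochberg adjustment at 0.05 over 5009 genes. The fit has 2 residual degrees of freedom, to which eBayes adds 5.12 pooled over genes, so an SE rests more on other genes than on its own; the fit was tested on simulated data. Near-identical copies were taken as 95% identity or more over 80% of the coding sequence or more, with BLAST+ 2.17.0. The search covered only coding sequences of the R64 RefSeq annotation. The comparison, the gene lists and the rule for named genes were chosen with earlier results of these data known. Genes named are those past the 2-fold distance or called by limma, the sulfite and sulfate genes, the leading genes of each list and the highest genes with a value on 1 side; further list members and those singled out at 1.5-fold were chosen after their values were seen. Of the 19 genes past that distance, 1 is not reported here. No paired analysis was made, since strains carry no replicate numbers.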

Additional observations from a re-analysis of the deposited data

How the results depend on the processing

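No paired analysis was possible because each strain and SO2 level has 1 library and the groups share no replicates. limma called 1 gene instead of 2 without the scaling factors, at a pseudocount of 0.1 and at a minimum mean of 20, and 0 of 6036 genes without a filter on low values, where 336 had an unadjusted p under 0.05. YHB1 was called in 12 of 13 alternatives (adjusted p from 0.00108 to 0.278). Leaving out 1 strain in turn, limma called between 4 and 7 genes, and between 87 and 165 genes were past the 2-fold distance (87 without R008, 94 without EC1118, 165 without VL3 and 108 without AWRI796), where fewer pairs of strains have to differ and the lone strain of a side is assumed to vary like the others. The 19 genes past that distance became 11 at a pseudocount of 5, 9 at a minimum mean of 20, 11 without dubious, overlapping and near-identical genes, and 102 at a distance of 1.5-fold, chosen after seeing the data; of the named 19, 11, 9 and 11 were kept in the first 3 of these. In the 2 of them that compared fewer genes, every one of the 19 still compared was kept, 9 of 9 and 11 of 11. At a pseudocount of 5 all 19 were still compared, and a larger pseudocount shrinks the distances of genes with low values. Without scaling factors the median difference of all genes was -0.17 in place of -0.02, the split of the genes past 2-fold became 10 higher and 11 lower against 12 and 7, and lists with a median above 0 numbered 12 instead of 24; at a pseudocount of 5 the split was 5 higher and 6 lower. A change of sign was looked for only in genes past the 1.5-fold distance and in the sulfite and sulfate genes. Other genes named here may change sign too. Among those checked, sign changed for FZF1 (-0.01 to 0.32 when a strain was left out). It also changed for MET3 (-0.03 without scaling, and -0.18 to 0.4 when a strain was left out). The others were MET1 (-0.11 without scaling, and -0.18 to 0.25), MET14 (-0.63 to 0.12), MET16 (-0.1 to 0.46) and MET22 (0.0 with quantile normalization). Depth is unknown, so no counting error can be given for genes near 0.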

Other observations

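Several genes divided the 4 strains in another way than the 2 sides. CUP1-1 and CUP1-2, metallothioneins that bind copper and are near-identical copies whose reads cannot be assigned with certainty, were 8050 and 32.4 in R008 and both listed at 0 in EC1118, against 1817 for each in VL3 and 0 and 0.806 in AWRI796. PDC5, a pyruvate decarboxylase, was 2460 in R008 and 87.6 in EC1118, against 286 in VL3 and 356 in AWRI796. ACS1, an acetyl-CoA synthetase, was 14.2 and 13, against 0.984 and 13.1, so VL3 stood alone. BDH2, a butanediol dehydrogenase, was 239 and 71, against 38.9 and 62, with R008 the highest. RTA1, of a family of lipid-translocating exporters, was 5.51 in R008 and 2.91 in EC1118, against 4.07 in VL3 and 41.3 in AWRI796. TEF1 and TEF2, copies of 1 elongation factor gene, were 755 and 0.335 in R008 and 512 and 561 in EC1118, against 44.2 and 1870 in VL3 and 499 and 543 in AWRI796. These genes were chosen after their values were seen, and their differences were not called by limma in the fit to all 4 libraries with SO2.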
